A study of Danio rerio with 12 samples.

Results

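Lipoprotein lipase (LPL, ENSDARG00000087697) and angiopoietin-like 4 (angptl4 in zebrafish, ENSDARG00000035859, called ANGPTL4 below as in the name table), a secreted inhibitor of that lipase, were followed across 12 zebrafish brain libraries. They are 2 of 32105 genes in the count table, and both were among the 19645 genes that passed the filter on low counts. Both were picked from measured values: LPL was called higher in the actb1 sponge line against wild type, and ANGPTL4 was called lower in the kif5a sponge line against wild type. A gene was called at an adjusted p under 0.05. Those contrasts are therefore given below as descriptions, without a test.

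The libraries came from brains of 6-month-old males in 3 strain groups of 4 libraries each: actb1::miR-29sponge, kif5a::miR-29sponge and wild type. A sponge construct makes RNA that binds a microRNA, here miR-29, and so keeps it from its natural targets. The lines are named for actb1, a cytoplasmic actin gene used in most cells, and kif5a, a kinesin gene used in neurons. The labels do not say whether libraries of a group came from separate animals, nor how many founders a line has. In bulk tissue, fewer cells of a type and less RNA per cell cannot be told apart.

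LPL cuts the triglycerides carried by lipoproteins and so releases fatty acids to the tissue around it. In mammals the enzyme folds in the endoplasmic reticulum with the help of LMF1 and SEL1L, is carried to the capillary wall by GPIHBP1, and is activated by the apolipoprotein APOC2. ANGPTL4 and ANGPTL8 are among its secreted inhibitors, and ANGPTL4 is induced by fatty acid-sensing PPAR receptors, glucocorticoids and hypoxia. In the mammalian brain LPL is made by neurons and glia, and its messenger RNA is a reported target of miR-29.

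Total counts ran from 20884576 to 33573243 per library. Library actb1 sponge 3 stood apart, with 2.24% of its counts from 13 protein-coding genes of the mitochondrial genome against 9.37% to 13.97% in the other 11 libraries. Markers of photoreceptors, the light-sensing cells of the retina and the pineal organ, summed to 447.8 to 741.4 CPM (counts scaled to library size) in libraries 1 to 3 of the actb1 sponge line. They summed to 530.1 and 563.2 CPM in libraries 2 and 3 of the kif5a sponge line, and to 159.7 to 207.7 CPM in the other 7 libraries. Brain markers were high in every library. The 20 neuronal identifiers summed to 6783 to 9424 CPM in the actb1 sponge line, 9165 to 9795 CPM in the kif5a sponge line and 8364 to 9922 CPM in wild type.

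LPL was most abundant in the actb1 sponge line and had overlapping levels in the kif5a sponge line and wild type. In normalised CPM, it stood at 101.7, 101.3, 96.33 and 65.92 in actb1 sponge libraries 1 to 4. It stood at 57.61, 44.01, 35.06 and 31.63 CPM in kif5a sponge libraries 1 to 4, and at 46.65, 48.54, 40.53 and 47.50 CPM in wild-type libraries 1 to 4. All 4 actb1 sponge libraries lay above all 8 others, whereas the kif5a sponge libraries spread on both sides of wild type.

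The actb1 sponge mean of LPL was 91.3 ± 17.1 CPM, the kif5a sponge mean 42.1 ± 11.6 CPM and the wild-type mean 45.8 ± 3.60 CPM (SD, n = 4 each). The fitted log2 difference between the actb1 sponge line and wild type, by which LPL was picked, was 0.995 ± 0.184 (SE), or 1.99-fold. Over all tested genes, 0.28% were called higher in that contrast and 4.08% had every actb1 sponge library above every wild-type library. The call that picked LPL was kept in 1 of the 8 fits that each left out 1 library of either group, the fit without actb1 sponge library 4, and the log2 difference ran from 0.94 to 1.12 over those fits.

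In the kif5a sponge line, a contrast that did not pick LPL, the log2 difference from wild type was -0.12 ± 0.18 (edgeR quasi-likelihood test, adjusted p = 0.88). The 95% interval of that difference ran from -0.52 to 0.28 on the log2 scale, so a doubling of LPL in this line lay outside it. The wild-type libraries are shared with the contrast that picked LPL. Set directly against the actb1 sponge line, the kif5a sponge line was lower in LPL by a log2 difference of -1.12 ± 0.18, with no overlap between the groups. This is a description, since the actb1 sponge libraries picked the gene. Over all tested genes, 0.641% were called lower and 4.68% did not overlap, lower, in that contrast.

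ANGPTL4 showed another order of the groups: lowest in the kif5a sponge line, between in the actb1 sponge line and highest in wild type. It stood at 23.52, 16.76, 46.38 and 47.23 CPM in actb1 sponge libraries 1 to 4. In kif5a sponge libraries 1 to 4 it stood at 11.86, 11.14, 9.81 and 18.85 CPM, and in wild-type libraries 1 to 4 at 47.74, 92.84, 48.68 and 48.35 CPM. Each kif5a sponge library lay below each wild-type library: the highest had 18.85 CPM, and the lowest of wild type 47.74 CPM. The actb1 sponge libraries split into a lower and a higher pair, and the higher pair reached almost to the lowest wild-type library.

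The mean of ANGPTL4 was 33.5 ± 15.6 CPM in the actb1 sponge line, 12.9 ± 4.05 CPM in the kif5a sponge line and 59.4 ± 22.3 CPM in wild type (SD, n = 4 each). The log2 difference between the kif5a sponge line and wild type, by which ANGPTL4 was picked, was -2.20 ± 0.36, or 4.59-fold lower. Over all tested genes, 0.422% were called lower in that contrast and 4.99% had every kif5a sponge library below every wild-type library. The log2 difference ran from -2.44 to -1.90 when single libraries were left out, and the call was kept in 5 of those 8 fits. It was lost without kif5a sponge library 1, 2 or 3.

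In the actb1 sponge line, a contrast that did not pick ANGPTL4, its log2 difference from wild type was -0.83 ± 0.34, with a 95% interval from -1.57 to -0.08. The unadjusted p was 0.0323 and the adjusted p over all tested genes 0.252 (edgeR quasi-likelihood test), so the difference did not pass. The wild-type libraries are shared with the contrast that picked ANGPTL4. No actb1 sponge library reached the lowest wild-type library, although the gap was 47.23 against 47.74 CPM. Over all genes, 5.25% did not overlap in that direction. Of the fits that left out single libraries, the one without wild-type library 2 moved this value most: without it the log2 difference was -0.53 (adjusted p = 0.5).

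Between the lines, ANGPTL4 differed by a log2 of -1.37 ± 0.35 (kif5a sponge minus actb1 sponge), a description, since the kif5a sponge libraries picked the gene. The highest kif5a sponge library had 18.85 CPM and the lowest actb1 sponge library 16.76 CPM, so the groups overlapped by that pair.

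Counting error was small beside the spread between libraries. LPL rested on 893 to 3448 counts per library and ANGPTL4 on 250 to 2741 counts. The exact 95% Poisson interval of the lowest ANGPTL4 value, kif5a sponge library 3, ran from 8.63 to 11.11 CPM, and that of the lowest LPL value, kif5a sponge library 4, from 29.71 to 33.64 CPM. These intervals cover counting error only.

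**Figure D1:**
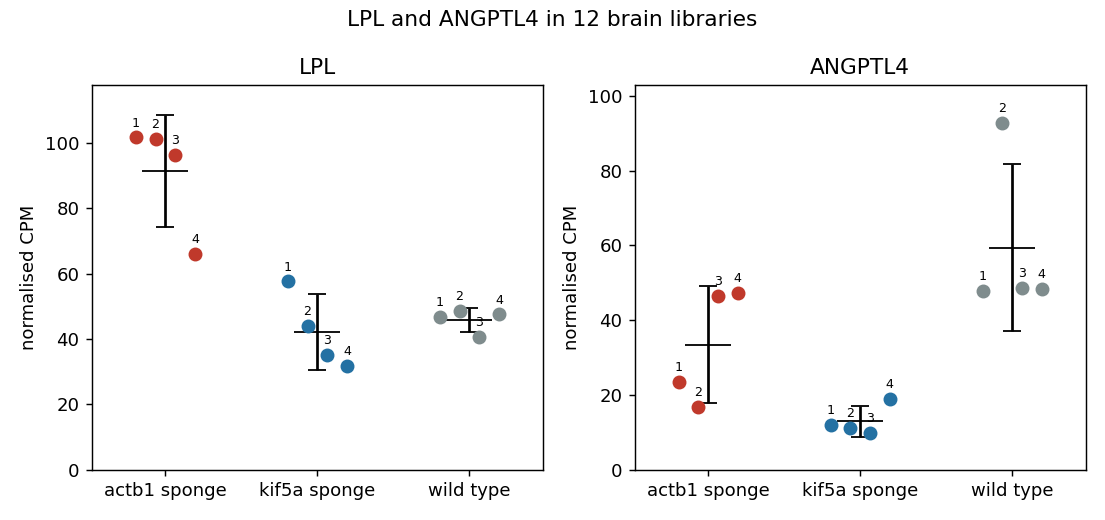
Normalised CPM of LPL (left) and ANGPTL4 (right) in each library, labelled by its number; the horizontal line is the group mean and the bar its SD (n = 4). LPL is above 65 CPM only in the actb1 sponge line, and ANGPTL4 is below 19 CPM in all 4 kif5a sponge libraries.

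Levels of the lipase and its inhibitor were compared per length of transcript, as RPKM (reads scaled to transcript length and library size) with reads counted against each library's own total. In the actb1 sponge line LPL stood at 30.6 ± 6.71 RPKM beside 12.3 ± 5.85 RPKM of ANGPTL4. The kif5a sponge line had 14.4 ± 4.07 RPKM of LPL beside 4.86 ± 1.52 RPKM of ANGPTL4. Wild type had 15.2 ± 1.65 RPKM of LPL beside 21.7 ± 8.33 RPKM of ANGPTL4, and was the group in which the inhibitor had the higher mean.

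The ratio of LPL to ANGPTL4 within a library, taken from normalised CPM and so not per length, separated both lines from wild type. It was 4.32, 6.05, 2.08 and 1.396 in actb1 sponge libraries 1 to 4, and 4.86, 3.95, 3.57 and 1.68 in kif5a sponge libraries 1 to 4. In wild-type libraries 1 to 4 it was 0.977, 0.523, 0.832 and 0.982. All 8 sponge libraries exceeded all 4 wild-type libraries.

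The mean log2 ratio was 1.56 ± 0.97 in the actb1 sponge line, 1.71 ± 0.67 in the kif5a sponge line and -0.32 ± 0.43 in wild type (SD, n = 4 each). The higher ratio went with more LPL and a lower mean of ANGPTL4 in the actb1 sponge line. In the kif5a sponge line it went with less ANGPTL4, while LPL was not called. Both genes were picked for how they moved and both lines share the wild-type libraries, so the ratio carries no test. Leaving out single libraries kept the difference of the mean log2 ratio from wild type between 1.53 and 2.24 for the actb1 sponge line and between 1.82 and 2.35 for the kif5a sponge line.

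**Figure D2:**
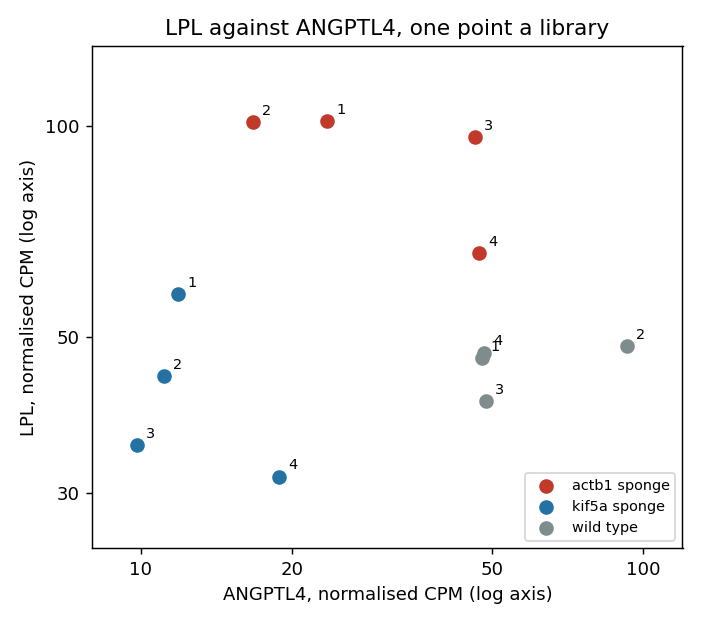
LPL against ANGPTL4 in normalised CPM on log axes, one point a library with its number. The actb1 sponge libraries lie high, the kif5a sponge libraries lie to the left at LPL levels around those of wild type, and wild-type library 2 lies far to the right at 92.84 CPM of ANGPTL4.

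A second identifier, ENSDARG00000098720, also carries the symbol LPL. It had 2 to 31 counts per library, most of them in actb1 sponge library 3, and did not pass the filter. The sources used here do not say how reads that match both were counted. The library kit does not mark the strand, so reads of an overlapping antisense gene cannot be told apart from those of either gene.

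The inhibitor gene angptl8 was near the limit of detection. Its mean was 0.70 CPM in the actb1 sponge line, 0.62 CPM in the kif5a sponge line and 0.50 CPM in wild type, and it was not called in either line (edgeR adjusted p = 0.505 and 0.83). At 9 to 33 counts per library, little can be read from it.

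Among the 8 tested angiopoietin-like genes beside ANGPTL4, none was called in either line against wild type, where 0.738% (actb1 sponge) and 0.534% (kif5a sponge) of all genes were called. The unadjusted p was under 0.05 for 3 of them in the actb1 sponge line and for 1 in the kif5a sponge line, beside 16.7% and 11.3% of all tested genes, the shares against which such counts below are to be read. Their median log2 difference was 0.09 in the actb1 sponge line and -0.08 in the kif5a sponge line, beside -0.03 and -0.01 over all genes.

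ANGPTL1, a family member not known as a lipase inhibitor, had 12.81, 10.43, 23.02 and 4.84 CPM in actb1 sponge libraries 1 to 4 and 5.03 to 6.02 CPM in wild type. Its log2 difference was 1.21 ± 0.42 (edgeR adjusted p = 0.185), with the groups overlapping through library 4. For angptl7 the differences were -0.95 (adjusted p = 0.461) in the actb1 sponge line and -1.41 (adjusted p = 0.432) in the kif5a sponge line, with 1 wild-type library at 12.52 CPM. ANGPTL6 had 0 to 14 counts and was not tested.

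Genes that fold, cut or carry LPL did not differ from wild type past the threshold. None of the 15 tested genes of this list was called in either line, and their median log2 difference was -0.01 in the actb1 sponge line and 0.08 in the kif5a sponge line. The unadjusted p was under 0.05 for 4 of them in the actb1 sponge line and for 0 in the kif5a sponge line. SEL1L, the endoplasmic reticulum partner of LPL, stood at 64.3 ± 3.39 CPM in the actb1 sponge line, 65.7 ± 2.65 CPM in the kif5a sponge line and 64.8 ± 4.34 CPM in wild type. LMF1, which LPL needs to fold, had a log2 difference of -0.11 ± 0.15 in the actb1 sponge line (edgeR adjusted p = 0.735) and 0.16 ± 0.15 in the kif5a sponge line (adjusted p = 0.75).

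Of the LMF1 relatives, LMF2 (ENSDARG00000025859) had 26.9 ± 2.63 CPM in the actb1 sponge line and 18.5 ± 4.24 CPM in wild type. These groups did not overlap, as in 4.08% of all genes in that direction. The LMF2 log2 difference of 0.54 ± 0.21 did not pass (edgeR adjusted p = 0.225). FURIN (ENSDARG00000062909), a protease that cuts both LPL and ANGPTL proteins in mammals, had a log2 difference of 0.52 ± 0.17 in the actb1 sponge line (edgeR adjusted p = 0.159). A second FURIN identifier, ENSDARG00000070971, had -0.15 ± 0.23 in that line and was not called. The LPL activator apoc2 had 0 to 10 counts per library and was not tested. The symbols apoa5 and gpihbp1 matched no identifier in the name table used here and were not analysed.

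**Figure D3:**
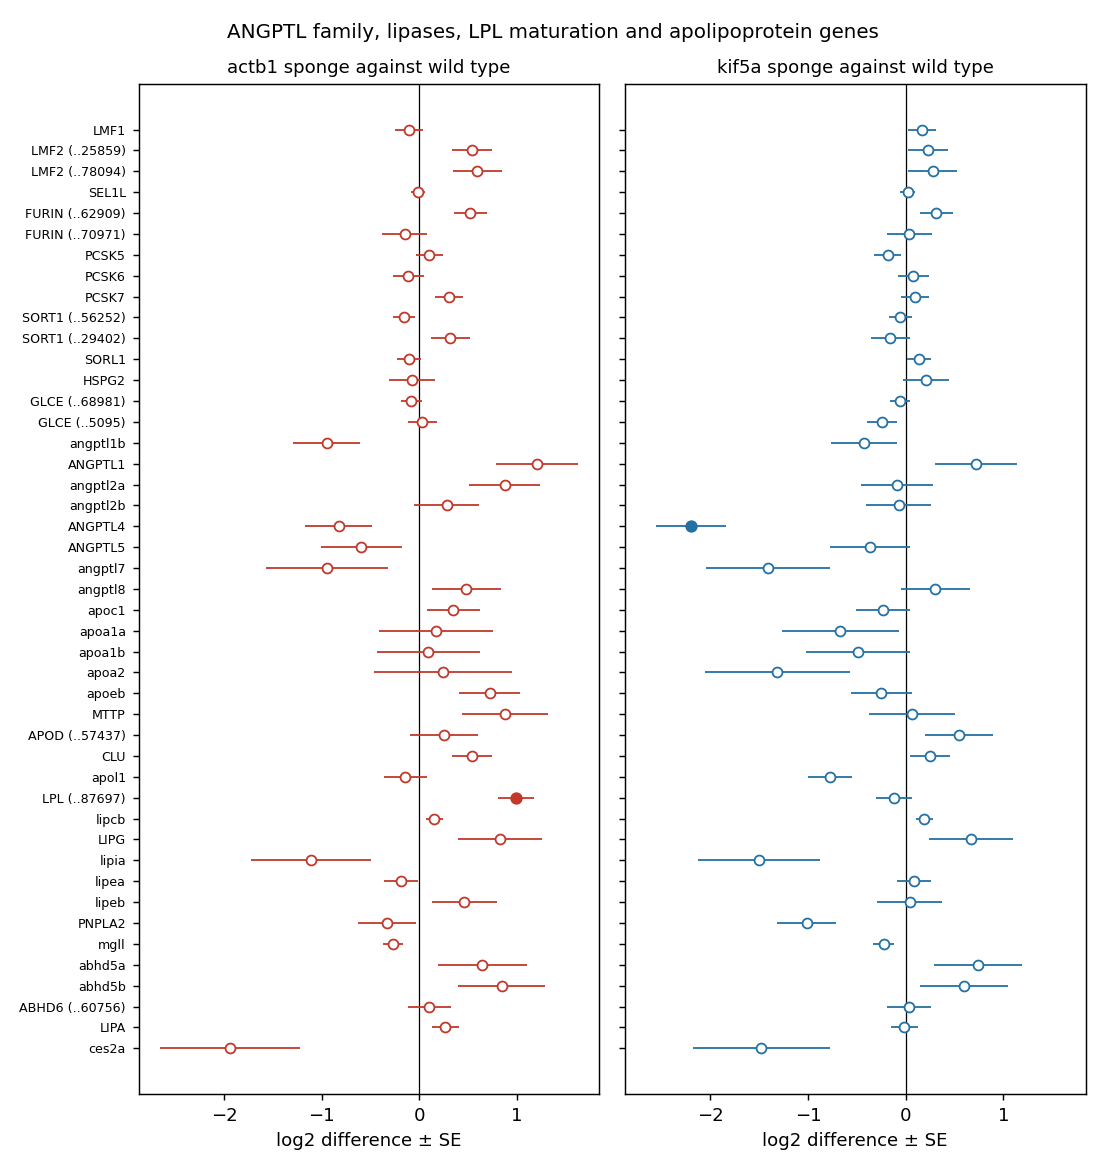
Log2 difference from wild type with its SE for genes of LPL maturation, the angiopoietin-like family, apolipoproteins and lipases, in the actb1 sponge line (left) and the kif5a sponge line (right). Filled points have an adjusted p under 0.05, dots in a name stand for the first part of an identifier, and the filled points are LPL on the left and ANGPTL4 on the right, each in the contrast that picked it.

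Lipoprotein substrates and other lipases gave 0 calls as well. Of 9 tested apolipoprotein genes, 8 had a positive log2 difference in the actb1 sponge line (median 0.26) and 3 in the kif5a sponge line (median -0.25). The unadjusted p was under 0.05 for 2 and 1 of them by edgeR. Relative to each gene's wild-type mean, the median log2 value of these 9 genes was -0.04, -0.09, 0.85 and 0.60 in actb1 sponge libraries 1 to 4. Among them, apoeb, an orthologue of the brain lipoprotein APOE, had 404.7, 415.5, 1224 and 484.7 CPM in actb1 sponge libraries 1 to 4. It had 260.9 to 414.1 CPM in the kif5a sponge line and 345.8 to 447.1 CPM in wild type, so library actb1 sponge 3 alone lay far above.

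Among 12 tested lipase and lipolysis genes beside LPL, the unadjusted edgeR p was under 0.05 for 2 in the actb1 sponge line and 3 in the kif5a sponge line. The hepatic lipase paralogue lipcb had a log2 difference of 0.15 in the actb1 sponge line and 0.19 in the kif5a sponge line (adjusted p = 0.392 and 0.435). The monoglyceride lipase gene mgll had -0.27 and -0.23 (adjusted p = 0.231 and 0.443). PNPLA2, the first lipase of stored fat, had -1.02 ± 0.30 in the kif5a sponge line (adjusted p = 0.238).

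Receptors and carriers that take up LPL's products also gave 0 calls among 35 tested genes, with 8 unadjusted p under 0.05 in the actb1 sponge line and 6 in the kif5a sponge line by edgeR. VLDLR, a receptor for triglyceride-rich lipoproteins, stood at 43.6 ± 2.095 RPKM in the actb1 sponge line, 43.6 ± 4.40 RPKM in the kif5a sponge line and 39.6 RPKM on average in wild type. CD36, a fatty acid receptor, differed by a log2 of -0.11 and -0.06 in the actb1 and kif5a sponge lines (adjusted p = 0.764 and 0.939). The fatty acid-binding gene FABP7 (ENSDARG00000007697) had 838.6 to 1168 CPM in the actb1 sponge line, 844.7 to 1023 CPM in the kif5a sponge line and 664.8 to 770.6 CPM in wild type. Both sponge groups lay above wild type without overlap, as did 4.08% of all genes in the actb1 sponge line and 4.26% in the kif5a sponge line, and the log2 differences of 0.44 and 0.37 did not pass (adjusted p = 0.1 and 0.243).

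PPAR receptors and their textbook targets form the list that holds ANGPTL4. The list was chosen with earlier results of these data known, among them the call of ANGPTL4 in the kif5a sponge line. Counts of its members in that line are therefore descriptions. In the kif5a sponge line 5 of the 52 other tested genes fell and 0 rose, where 0.422% and 0.112% of all genes were called lower and higher. In 40 of the 52 the log2 difference was negative, and the median was -0.22 beside -0.01 over all genes. With the deposited RPKM, most of which were divided by another library's total, 27 of the 52 were negative. The median was then -0.02 beside 0.145 over all genes. Every kif5a sponge library was below every wild-type library in 18 of the 52, against 4.99% of all genes. In the actb1 sponge line 0 of the 52 were called (13 at an unadjusted p under 0.05), the median was -0.03, and 7 were below wild type without overlap, against 5.25% of all genes. In that line 27 of the 52 were negative. Without actb1 sponge library 3 the median was -0.09 with 38 negative, and without library 2 it was 0.06 with 20 negative.

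The 5 genes that fell were 2 pyruvate dehydrogenase kinases, 2 carnitine palmitoyltransferases and cyp4t8. Pyruvate dehydrogenase kinases restrain the entry of glucose carbon into the mitochondrial cycle, and carnitine palmitoyltransferases bring fatty acids into mitochondria. PDK2 (ENSDARG00000059054) had 6.95, 6.87, 11.54 and 20.14 CPM in the actb1 sponge line. It had 0.938, 1.31, 2.04 and 2.96 CPM in the kif5a sponge line, and 8.83, 11.01, 11.74 and 7.77 CPM in wild type. The kif5a sponge libraries were apart from all 8 others, at a log2 difference from wild type of -2.44 ± 0.41 (edgeR adjusted p = 0.0181).

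CPT1B, the form of the transferase used in muscle in mammals, had 1.36, 1.14, 3.26 and 4.799 CPM in the kif5a sponge line and 10.51, 13.24, 9.15 and 10.37 CPM in wild type, a log2 difference of -2.03 ± 0.40 (edgeR adjusted p = 0.0493). A second PDK2 identifier, ENSDARG00000020876, had 17.13, 20.80, 25.60 and 39.20 CPM in the kif5a sponge line and 54.75 to 69.65 CPM in wild type. Its log2 difference was -1.26 ± 0.23 (adjusted p = 0.0279), and in the actb1 sponge line -0.97 ± 0.23 (adjusted p = 0.0772). The paralogue cpt1ab fell by 0.87 ± 0.17 (adjusted p = 0.0415) and cyp4t8, of a family of fatty acid hydroxylases, by 0.65 ± 0.13 (adjusted p = 0.0408) on the log2 scale. Relatives with like roles were not called in the kif5a sponge line. Their log2 difference was 0.01 ± 0.07 for CPT1A and -0.13 ± 0.11 for CPT2. For PDK3 it was 0.08 ± 0.21 (ENSDARG00000014527) and -0.41 ± 0.17 (ENSDARG00000099791).

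These 5 calls rest on few libraries, as did that of ANGPTL4. The count of called pathway genes was 0 without kif5a sponge library 1, 2 or 3, 1 without wild-type library 1, 2 or 4, 2 without wild-type library 3, and 5 without kif5a sponge library 4. It was 2 without actb1 sponge library 1, 2 or 4, and 4 without actb1 sponge library 3. The actb1 sponge libraries enter this contrast only through the filter, the scaling and the shared spread. In all of these fits the 5 log2 differences stayed negative, with that of PDK2 (ENSDARG00000059054) between -2.79 and -2.21 and that of CPT1B between -2.502 and -1.784. The median of the list lay between -0.25 and -0.20 over the same fits.

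The other targets without overlap were not called. They include the mitochondrial acyl-CoA dehydrogenases ACADVL (log2 -0.31), ACADM (-0.31) and ACADS (-0.48, edgeR adjusted p = 0.238), the isomerases ECH1 (-0.46, adjusted p = 0.149) and ECI1 (-0.49), and the uncoupling protein gene UCP1 (-0.58) in the kif5a sponge line. PDK4, a kinase induced with ANGPTL4 on fasting in mammals, was below wild type without overlap in both lines, which share the wild-type libraries. So were 5.25% of all genes in the actb1 sponge line and 4.99% in the kif5a sponge line. The log2 differences of PDK4 were -0.77 ± 0.19 (adjusted p = 0.0931) in the actb1 sponge line and -0.85 ± 0.19 (adjusted p = 0.101) in the kif5a sponge line.

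None of the receptor genes was called. The log2 differences of pparaa were 0.26 and 0.02 in the actb1 and kif5a sponge lines, and those of PPARA 0.68 and 0.28. PPARD had -0.13 and -0.17 (ENSDARG00000009473) and 0.12 and -0.24 (ENSDARG00000044525). RXRA (ENSDARG00000057737) had -0.66 ± 0.16 (edgeR adjusted p = 0.088) and 0.04 ± 0.16. In the actb1 sponge line it was below wild type without overlap, as were 5.25% of all genes. A second RXRA identifier, ENSDARG00000035127, had 0.24 ± 0.26 and 0.05 ± 0.26. For pparg, the receptor of fat cells and macrophages, 1.04, 1.52, 1.57 and 2.59 CPM in the kif5a sponge line stood against 1.49, 7.08, 1.72 and 4.64 CPM in wild type (log2 -1.15 ± 0.45, edgeR adjusted p = 0.362). Its high wild-type libraries 2 and 4 are those with most microglial marker RNA, given below.

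Between the lines 1 of the 52 genes was called, where 1.18% of all genes were. This was PDK2 (ENSDARG00000059054), lower in the kif5a sponge line than in the actb1 sponge line by a log2 difference of -2.64 ± 0.41 (edgeR adjusted p = 0.00843), a call kept in all 8 fits without single libraries of either line. The median of the list in that contrast was -0.23, and 42 of the 52 differences were negative. Without actb1 sponge library 3, which had the low mitochondrial share, the median was -0.11 and 35 of the 52 were negative. In the other fits without a single library the median lay between -0.275 and -0.199. In the same contrast 19 of 21 tested skeletal muscle markers were negative, with a median of -1.61 and 0 called. All 29 tested microglial and macrophage markers were negative, with a median of -0.57 and 0 called. Over all genes the median was 0.004. The part of muscle or microglial RNA in this contrast was not tested.

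**Figure D4:**
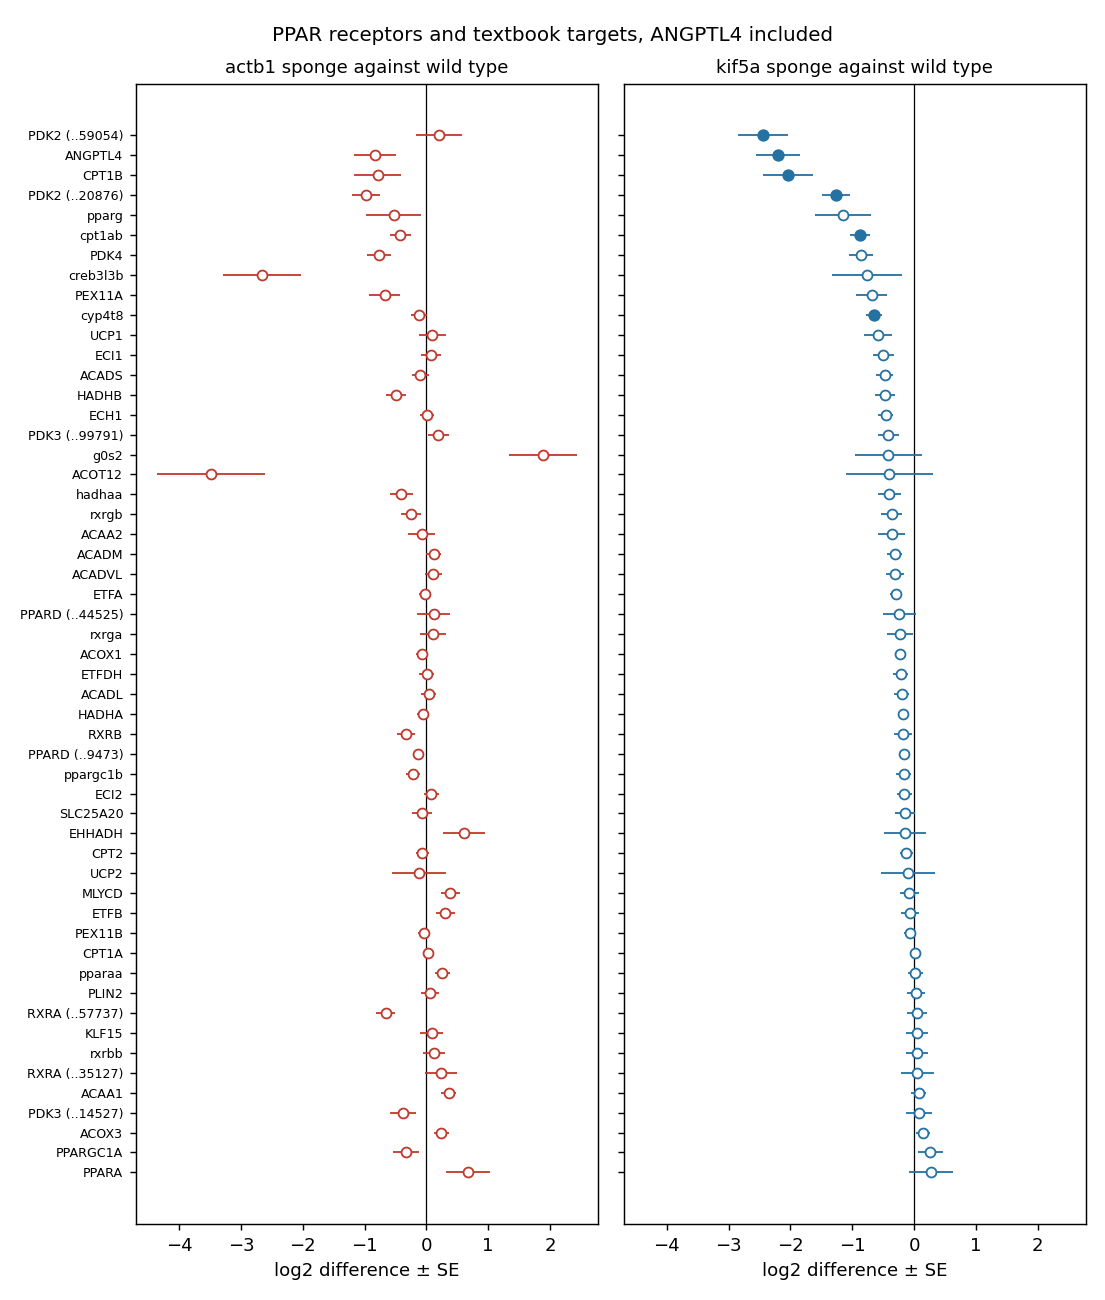
Log2 difference from wild type with its SE for ANGPTL4 and the 52 other tested PPAR receptors and textbook targets, ordered by the kif5a sponge line (right) and shown beside the actb1 sponge line (left). Filled points have an adjusted p under 0.05: in the kif5a sponge line ANGPTL4, which was picked there, and the 5 genes that fell; in the actb1 sponge line there is none.

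ANGPTL4 is also a target of glucocorticoids and hypoxia, and those responsive genes gave 0 calls among 35 in either line (8 and 3 at an unadjusted edgeR p under 0.05 in the actb1 and kif5a sponge lines). The median log2 difference of the list was 0.06 in the actb1 sponge line and 0.00 in the kif5a sponge line. FKBP5, a glucocorticoid-induced chaperone, varied widely: 38.39, 8.65, 61.68 and 50.82 CPM in the actb1 sponge line, 13.74, 69.76, 8.17 and 22.19 CPM in the kif5a sponge line and 8.76 to 11.65 CPM in wild type. Its log2 differences of 1.94 and 1.45 did not pass (adjusted p = 0.165 and 0.414). KLF9, of the same list, had 5.69, 1.70, 4.89 and 3.96 CPM in the actb1 sponge line. In the kif5a sponge line it had 1.42, 6.505, 1.37 and 4.49 CPM, and in wild type 1.04 to 1.73 CPM. Both genes exceeded every wild-type library in actb1 sponge libraries 1, 3 and 4 and in kif5a sponge libraries 2 and 4. The log2 differences of KLF9 were 1.39 and 1.16 (edgeR adjusted p = 0.204 and 0.419). Of the 35 genes, 16 and 17 differed negatively in the actb1 and kif5a sponge lines. IGFBP1, induced by hypoxia and fasting, had -0.84 ± 0.19 in the actb1 sponge line (adjusted p = 0.0752). In the same line tsc22d3 had 0.56 ± 0.16 (edgeR adjusted p = 0.122).

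Among the genes whose log2 CPM ran most like LPL over the 12 libraries, by Pearson correlation among 14110 genes, were PRELP (0.92), TBL1X (0.90), TCTE1 (0.90) and BMP3 (0.89). Running most against it were FKBP1B (-0.92), rad18 (-0.91) and NRBF2 (-0.91). PRELP, a matrix proteoglycan, had 5.02, 4.33, 5.31 and 3.03 CPM in actb1 sponge libraries 1 to 4 and 1.94 to 2.97 CPM in wild type, with library 4 lowest of its group as for LPL. FKBP1B, which binds calcium release channels, had 40.40 to 66.61 CPM in the actb1 sponge line and 61.00 to 69.35 CPM in wild type, and there library 4 was highest.

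For ANGPTL4 the most alike was ntd5 (0.97), followed by naca (0.91), CAPRIN1 (ENSDARG00000054272, 0.90), PINX1 (0.90) and DHRS1 (0.90). Most opposed were NACC1 (ENSDARG00000099164, -0.91), SYDE2 (-0.91) and SMARCA4 (ENSDARG00000104339, -0.90). In ntd5 the actb1 sponge libraries had 5.99, 5.41, 12.07 and 10.54 CPM, the kif5a sponge libraries 4.07, 4.91, 3.77 and 5.33 CPM, and the wild-type libraries 15.17, 26.18, 12.66 and 15.11 CPM. It repeated the split of the actb1 sponge libraries and the high wild-type library 2 of ANGPTL4. All these correlations describe libraries that share groups and depth, and carry no test.

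Summed marker RNA of other cells is set here beside both genes. The photoreceptor list (25 of 25 identifiers detected) summed to 577.9, 447.8, 741.4 and 186.0 CPM in actb1 sponge libraries 1 to 4, which is the same division of libraries 1 to 3 from library 4 as in LPL. In the kif5a sponge line it summed to 195.2, 530.1, 563.2 and 207.7 CPM, and the libraries 2 and 3 with high sums had 44.01 and 35.06 CPM of LPL, no higher than wild type at 40.53 to 48.54 CPM. Wild type summed to 159.7 to 187.6 CPM. Of 23 tested photoreceptor markers, 22 had a positive log2 difference from wild type in each line, and 0 were called. The median log2 difference was 4.03 in the actb1 sponge line and 3.57 in the kif5a sponge line. The unadjusted edgeR p was under 0.05 for 20 and 17 of the 23 markers. The sums differed from wild type by much less than these medians. Much of the wild-type sum therefore came from list members that differed less than the median marker.

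Without the 5 libraries of high photoreceptor sums, 1 actb1 sponge library was left, whose spread is assumed to be that of the other groups. The log2 difference of LPL from wild type was then 0.58 in the actb1 sponge line and -0.03 in the kif5a sponge line. ANGPTL4 then differed by -0.28 in the actb1 sponge line and -1.94 in the kif5a sponge line. The part of photoreceptor RNA in these differences was not tested further.

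Microglial and macrophage markers (31 of 31 identifiers detected) summed to 1152, 1131, 1890 and 1926 CPM in actb1 sponge libraries 1 to 4. The high pair 3 and 4 is also the pair with more ANGPTL4, at 46.38 and 47.23 CPM. The kif5a sponge line summed to 778.2 to 1196 CPM. Wild-type libraries 1 to 4 summed to 878.0, 2624, 1005 and 2783 CPM, and of these library 2 had the most ANGPTL4 and library 4 about as much as libraries 1 and 3. At marker sums between 778.2 and 1196 CPM, ANGPTL4 stood at 9.81 to 18.85 CPM in the 4 kif5a sponge libraries. In the same range of sums, ANGPTL4 stood at 23.52 and 16.76 CPM in actb1 sponge libraries 1 and 2. Wild-type libraries 1 and 3, also in that range, had 47.74 and 48.68 CPM. A large part of the sums came from cd74a and cd74b, at 1027 and 509.1 CPM in wild-type library 2. In wild-type library 1 these had 285.8 and 130.2 CPM. Libraries of like sums are therefore alike largely in these genes. The part of microglial RNA in these differences was not tested. None of 29 tested markers was called in the kif5a sponge line (9 at an unadjusted edgeR p under 0.05). Of the 29, 27 had a negative log2 difference, and the median was -0.82.

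Skeletal muscle markers, beside CPT1B, summed to 56.35 to 182.2 CPM in the actb1 sponge line, 50.01 to 73.85 CPM in the kif5a sponge line and 65.81 to 134.8 CPM in wild type. Of 21 tested, 0 were called in the kif5a sponge line (8 at an unadjusted edgeR p under 0.05), with a median log2 difference of -0.73; the part of muscle RNA was not tested. Adipocyte markers (8 of 8 identifiers detected, 3 tested) summed to 12.74 to 25.03 CPM in the actb1 sponge line, 14.29 to 42.11 CPM in the kif5a sponge line and 9.90 to 15.24 CPM in wild type, nearly all of it cfd. ADIPOQ (ENSDARG00000062228), a defining gene of fat cells, had at most 1.22 CPM in any library. Endothelial markers, of the cells on whose surface LPL works, summed to 267.2 to 325.4 CPM in the actb1 sponge line, 252.6 to 282.0 CPM in the kif5a sponge line and 231.8 to 339.9 CPM in wild type.

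**Figure D5:**
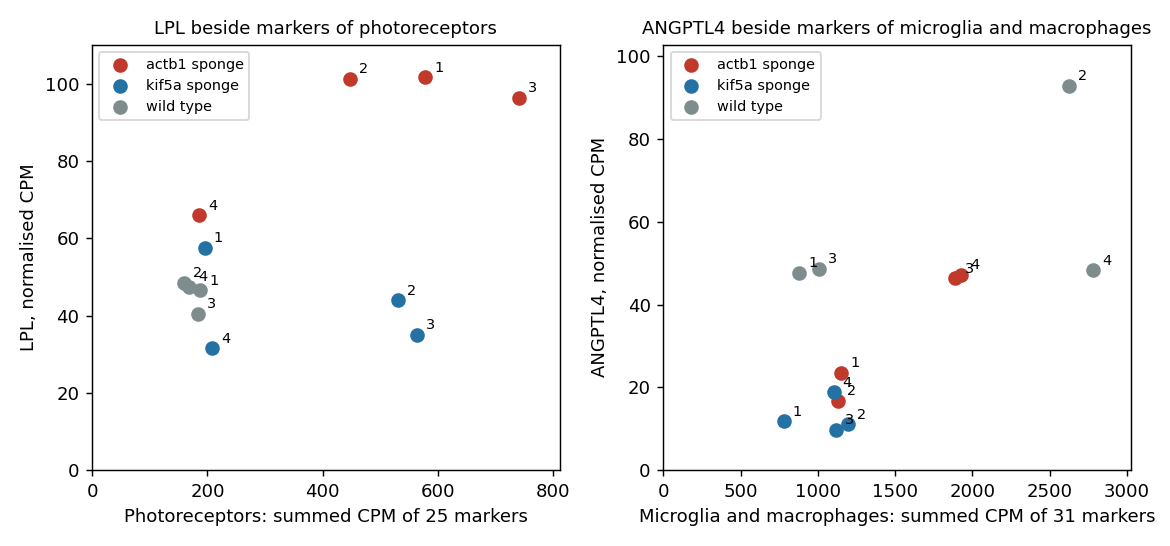
LPL beside the summed CPM of photoreceptor markers (left) and ANGPTL4 beside the summed CPM of microglial and macrophage markers (right), one point a library with its number. The kif5a sponge libraries with high photoreceptor sums are not high in LPL, and the kif5a sponge libraries lie below wild-type libraries 1 and 3 in ANGPTL4 at overlapping microglial sums. A large part of the microglial sums is cd74a and cd74b.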

How the data were processed

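RNA was sequenced from 12 brain libraries. Per the labels' protocols, libraries were made with the TruSeq RNA kit v2, which does not mark the strand. The submitters' processing notes name STAR 2.4.1d, bcl2fastq 1.8.4, build GRCz10 and featureCounts 1.4.6-p4, and the sources used here give no annotation release.

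Whole-number counts, deposited by the authors, were the input of every main test, and the authors also deposited RPKM values. By the ratio of count to RPKM within genes, the deposited RPKM were divided by library totals recycled down the genes, so 8.33% of values had their own total. RPKM were therefore recomputed with the right totals, and the deposited RPKM served as an alternative (limma, pseudocount 0.1).

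Genes over 0.5 CPM in at least 4 libraries were tested (19645 of 32105, 99.9% of counts) with edgeR 4.0.16 (R 4.3.3), using its quasi-likelihood test, TMM scaling and all 12 libraries in 1 model. P-values were adjusted by Benjamini-Hochberg over all tested genes. Normalised CPM are counts over the TMM-scaled library size. The fit was tested on simulated counts in which 200 of 19645 genes differed between the actb1 sponge line and wild type. There edgeR recovered 14.9% of 1.5-fold, 67.2% of 2-fold and 89.4% of 4-fold differences, with 4 false calls. A gene that was not called may therefore still differ. Alternatives were DESeq2 1.42.0 (its size factors and its test), limma-voom of limma 3.58.1, other filters, only the 8 libraries compared, and each library left out.

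Symbols came from the supplied name table (26269 identifiers matched). Groups follow the strain label; replicate numbers were given in accession order and do not pair libraries. Since the labels do not tie libraries to animals, p-values measure only the spread between libraries, which may be technical. The chi-square per degree of freedom between replicates was 9.64 to 265, above sampling noise, so none was counted as a duplicate.

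The 2 genes, the 7 pathway lists and the 12 marker lists were chosen with earlier results of these data known. Genes were named by a rule: list members called in any comparison, up to 3 further members of smallest p per list and line, defining partners of LPL, the 5 most and 3 least correlated genes, and the 2 most abundant markers per list. Named outside it, after their values were seen, were further PPAR targets without overlap (ACADVL, ACADM, ECI1, UCP1) and relatives of called genes (CPT1A, CPT2, PDK3). So were the identifiers ENSDARG00000070971 of FURIN and ENSDARG00000035127 of RXRA. Some genes that the rule takes are not reported here. No sequences or coordinates were used.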

Additional observations from a re-analysis of the deposited data

Results flagged for a closer look

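Among 165 sets of 4 libraries examined for a library far from the others, 11 had a gap, divided by the range, above Dixon's 95% critical value. Chance alone gives about 1 in 20.

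For LPL the actb1 sponge line was among them (0.851), since library 4 had 65.92 CPM and the other 3 had 96.33 to 101.7 CPM. For ANGPTL4 it was wild type (0.979), in which library 2 had 92.84 CPM and the other 3 had 47.74 to 48.68 CPM. Without that library the log2 difference of ANGPTL4 between the actb1 sponge line and wild type was -0.53.

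In the actb1 sponge line apoeb (0.902) was high in library 3, apoa2 (0.908) high in library 4, creb3l3b (0.838) high in library 2, RXRA (ENSDARG00000057737, 0.859) low in library 3 and PPARD (ENSDARG00000009473, 0.869) high in library 4. In the kif5a sponge line CD36 (0.85) was high in library 4. In wild type FURIN (ENSDARG00000062909, 0.944) was high in library 3, PDK4 (0.95) high in library 2 and KLF9 (0.967) low in library 1.

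The kif5a and actb1 sponge lines differed in PDK2 (ENSDARG00000059054) by a tested log2 difference of -2.644 (kif5a minus actb1).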

How the results depend on the processing

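No paired analysis was possible because replicate numbers only follow accession order. The planned exclusion of libraries over 4 times the highest wild-type photoreceptor sum left out no library. A 2-fold limit was chosen after seeing the data and left out 5. It left actb1 sponge library 4 alone in its group, so calls of that fit in contrasts with this line are not counted here. In the actb1 sponge line against wild type, where 145 genes were called, DESeq2 called 934, limma-voom 91, the fit on 8 libraries 83, the fit without 5 libraries 661, the deposited RPKM 61, and leaving out single libraries 38 to 243. Of the 166 pathway genes, with 0 called, these gave 10 (DESeq2), 1 (8 libraries) and 0 to 3 (single libraries). In the kif5a sponge line against wild type, with 105 called, DESeq2 gave 437, the fit without 5 libraries 15, the deposited RPKM 51 and single libraries 33 to 150; its 5 pathway calls became 9, 0, 2 and 0 to 5, and 1 on 8 libraries. In the kif5a against the actb1 sponge line, with 232 called, DESeq2 gave 950, the fit without 5 libraries 1167, the deposited RPKM 124 and single libraries 93 to 250; its 1 pathway call became 16 (DESeq2), 16 (without 5 libraries), 2 (8 libraries), 2 (recomputed RPKM) and 1 to 3 (single libraries). The cause was not tested.

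Without the 5 libraries, LPL differed by 0.58 between the actb1 sponge line and wild type. It differed by -0.61 between the kif5a and actb1 sponge lines, and PPARA reversed between those lines to 1.33 from -0.40. The actb1 sponge side was then library 4 alone, with 2.22 CPM of PPARA against 6.49 to 11.73 CPM in libraries 1 to 3. With the deposited RPKM, ANGPTL4 differed by -1.73 between the kif5a sponge line and wild type; these values also moved the median of all genes to 0.13 and 0.15 in the actb1 and kif5a sponge lines, the share of calls that were higher to 52.5% and 47.1%, from 37.9% and 21.0%, and the median of the PPAR list in the kif5a sponge line to -0.02 with 27 of 52 negative. Recomputed RPKM gave a higher share of 32.0% in the kif5a sponge line. Of 3252 values of single genes under an alternative, 3160 kept their side of the threshold, 57 lost the threshold, 34 gained it and 1 reversed. A reversal was counted only where the gene was called in the main or the alternative fit. Changes of sign in genes called in neither fit are among the 3160. Most of the 3252 values are of genes not called in the main fit, which keep their side by staying uncalled. The 57 all come from the few values called in the main fit, so the 3160 do not measure how well calls held.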
